A study of Mus musculus with 12 samples.

Results

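AMP-activated protein kinase (AMPK) is assembled from a catalytic α, a scaffolding β and a nucleotide-binding γ subunit, and the 10 genes described here encode its subunits and the kinases that switch it on. They were chosen by name and not by a cutoff on their values, though with earlier results of these data known. They are the α subunits Prkaa1 and Prkaa2, the β subunits Prkab1 and Prkab2, the γ subunits Prkag1 and Prkag2, the 3 parts of the LKB1 complex (Stk11, Strada and Cab39) and the calcium-dependent kinase Camkk2. All 10 were among the 12960 genes with counts, and 9 were among the 10822 genes that passed the filter on low counts and were tested. Prkaa2 was the exception.

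RNA sequencing was done on bone marrow-derived macrophages (BMDMs), which are macrophages grown from mouse marrow for 7 days in medium conditioned by L929 cells as a source of M-CSF. BMDMs came from wild-type (WT) mice or from AMPKβ1-/- mice, a line that lacks the β1 subunit and is distinct from the myeloid-specific LysM-Cre line of the same study, and how its allele was made is not given in the sources used here. Cells of each genotype received vehicle (0.1% DMSO) or 10 µM PF-06409577 (PF), a direct AMPK activator that acts on complexes containing β1, for 6 h. The 4 groups hold 3 libraries apiece and share the culture medium. The labels give no age, and they do not say whether the 3 libraries of a group came from separate animals or cultures, so p values measure the spread between these libraries, which may be technical.

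In cells short of ATP, AMP and ADP bind the γ subunit and expose the α subunit to activation by phosphorylation. The main upstream kinase is LKB1, encoded by Stk11, which is held active by the pseudokinase STRADα (Strada) and the scaffold encoded by Cab39. Calcium signals reach AMPK through CaMKK2 instead. In macrophages active AMPK is known for restraining lipid synthesis and for favouring oxidative metabolism, through phosphorylation of substrates such as acetyl-CoA carboxylase and ULK1.

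The depth per library ran from 8935609 to 14358180 counts. The 7 macrophage markers examined were all present and summed to between 24400 and 28500 CPM, counts scaled to the library's size, in a library, and none of the 5 lymphoid markers was among the counts. Lyz2 was the largest part of that sum, and single markers moved. In AMPKβ1-/- against WT BMDMs with vehicle 5 of the 7 were called, against 59.7% of all tested genes. Cd68 (log2 fold change -0.72, adjusted p = 2.7e-05), Csf1r and Fcgr1 were lower and Adgre1 and Itgam higher. With PF in WT 2 were called, against 15.9% of all tested genes, Csf1r (-0.58, adjusted p = 0.00207) and Itgam (-0.39, adjusted p = 0.00947), both lower. Granulocyte markers (3 of 6 present) summed to at most 0.784 CPM and dendritic cell markers (2 of 3 present) to at most 0.554 CPM. Fibroblast markers (5 of 5 present) summed to 0.923 to 1.89 CPM in WT vehicle, 1.03 to 1.29 CPM in WT PF, 2.02 to 8.66 CPM in AMPKβ1-/- vehicle and 1.58 to 2.12 CPM in AMPKβ1-/- PF libraries, and the part of these cells in the results was not tested. In bulk samples, fewer cells of a type and less RNA per cell cannot be told apart.

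The libraries of the genotypes also stood apart in a property of the transcripts. The slope of a library's log2 level, relative to the mean of all libraries, on the GC content of the transcripts ran from -0.054 to 0.74 per 10 percentage points in WT libraries and from -0.52 to -0.1 in AMPKβ1-/- libraries, so that AMPKβ1-/- libraries held relatively more RNA of AT-rich genes. The 10 genes cover a wide part of the range of GC content, from 40.1% GC in Prkaa1 and 40.7% in Prkaa2, through 44.3% in Cab39, 46.8% in Prkab2, 48.4% in Prkag2 and 49.2% in Strada, to 52.8% in Prkag1, 54.7% in Prkab1, 56% in Camkk2 and 58.4% in Stk11. Each difference is therefore given as tested with TMM normalization and, where it matters, after the trend in GC content and transcript length was removed from every library. The differences of the macrophage markers above are given with TMM alone. Which of these scales is nearer to the RNA content of the cells was not tested.

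Prkab1, the gene targeted in the knockout, lies on the minus strand of chromosome 5 (GRCm38, 116013586 to 116024508). Its level in WT BMDMs with vehicle was 43.4, 44.2 and 45.3 CPM, and with PF 41.9, 37.3 and 37.7 CPM. The AMPKβ1-/- libraries held 8.39, 7.7 and 6.05 CPM (vehicle) and 9.41, 9.42 and 7.9 CPM (PF). All 6 AMPKβ1-/- libraries lay far under all 6 WT libraries, as their labels say, yet every one of them held Prkab1 counts, between 57 and 120.

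Prkab1 in AMPKβ1-/- BMDMs was at 16.8% of WT with vehicle (log2 fold change -2.57, SE 0.12, adjusted p = 8.85e-09, edgeR's quasi-likelihood test with Benjamini-Hochberg adjustment). No tested gene had a smaller p in this comparison. With PF in both genotypes it was at 22.9% of WT (log2 fold change -2.13, SE 0.12, adjusted p = 4.02e-08). With the GC and length trend removed, the log2 fold changes were -2.24 and -1.92. Counts per gene do not show from which exons the remaining reads came.

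The other β subunit gene, Prkab2, was expressed at a low level. It was at 6.2, 6.37 and 5.77 CPM in WT BMDMs with vehicle and at 10.7, 7.37 and 5.62 CPM in AMPKβ1-/- BMDMs with vehicle, so the groups overlapped. With PF it was at 4.2, 7.67 and 8.08 CPM in WT and 8.1, 8.64 and 7.53 CPM in AMPKβ1-/- BMDMs. Against WT, AMPKβ1-/- BMDMs with vehicle had a log2 fold change of 0.37 (adjusted p = 0.201) and its 95% interval ran from -0.146 to 0.887, so both a small fall and a rise of the paralogue of the lost subunit lie within it. Removing the trend gave -0.13 (adjusted p = 0.709).

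Per kilobase of transcript, Prkab1 made up 94.5%, 94.4% and 95% of the β subunit RNA (Prkab1 plus Prkab2) in WT BMDMs with vehicle and 96%, 92.2% and 91.9% with PF. Its share in the AMPKβ1-/- libraries was 65.7%, 71.8% and 72.4% (vehicle) and 73.9%, 72.6% and 71.9% (PF). The shares of the genotypes did not overlap, and Prkab1 remained the larger of the β subunit RNAs in each AMPKβ1-/- library on this scale. The share averaged 71.4% ± 2.88 (SD, n = 6) in AMPKβ1-/- and 94% ± 1.62 (SD, n = 6) in WT BMDMs, a difference of -22.7 percentage points (two-sided exact permutation test within treatment, p = 0.005, the smallest that its 400 permutations allow). Prkab1 is the targeted gene, so a fall of its share follows from its own fall, and this p adds no separate evidence. With PF against vehicle the group means were 93.4% against 94.6% in WT and 72.8% against 70% in AMPKβ1-/- BMDMs, with overlapping libraries in both. On counts not divided by length, Prkab1 held 50.7% ± 3.4 (SD, n = 6) of the β subunit RNA in AMPKβ1-/- BMDMs. It held 44% in AMPKβ1-/- vehicle library 1, where it was not the larger. The share per kilobase uses the full transcript length, although the exons that gave the remaining reads are not known.

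**Figure D1:**
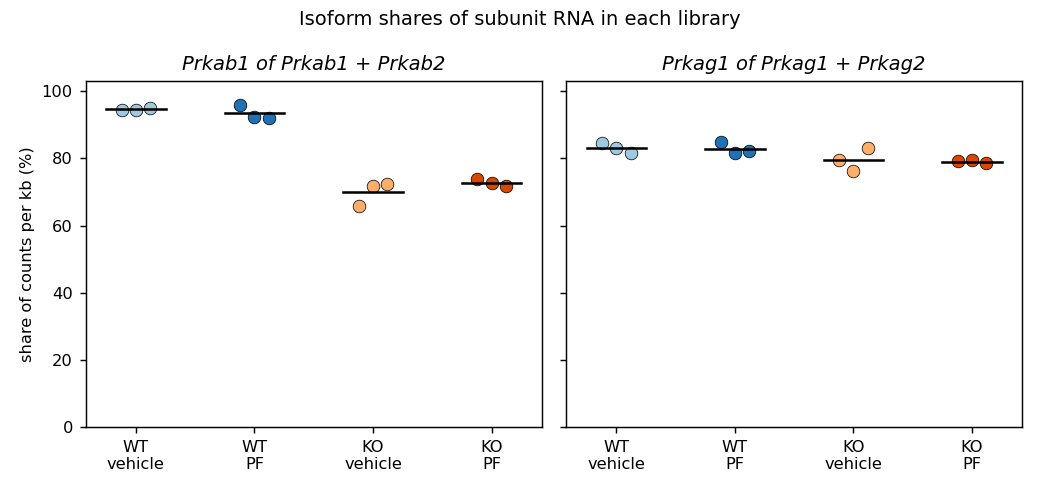
Share of Prkab1 in β subunit RNA (left) and of Prkag1 in γ subunit RNA (right), in percent of counts per kilobase, with 1 point per library and a bar at the mean of the 3 libraries of a group. The β1 share lies between 91.9% and 96% in WT and between 65.7% and 73.9% in AMPKβ1-/- BMDMs (KO), while the γ1 shares of the genotypes overlap.

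Of the catalytic subunits, Prkaa1 (α1; chromosome 15, 5143861 to 5181899, plus strand) carried nearly all the RNA. Prkaa2 (α2; chromosome 4, 105029874 to 105109890, minus strand) had 0 to 3 counts in each library but one, an AMPKβ1-/- library with PF that had 4, and was thus at or near the floor of 3 counts that a reading of 0 allows. The α1 share per kilobase averaged 99.8% in both genotypes. No fold change is given for Prkaa2.

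Prkaa1 was at 18.7, 21.9 and 20.5 CPM in WT BMDMs with vehicle and at 22.5, 28.4 and 27.9 CPM with PF. Its AMPKβ1-/- levels were 32.3, 44.1 and 47.1 CPM (vehicle) and 52.7, 46.2 and 46 CPM (PF). Every AMPKβ1-/- library was above every WT library. Prkaa1 rose 2.02-fold in AMPKβ1-/- against WT BMDMs with vehicle (log2 fold change 1.01, SE 0.14, adjusted p = 7e-05) and 1.84-fold with PF (0.88, SE 0.13, adjusted p = 0.000133).

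This direction did not hold once the GC and length trend was removed, where Prkaa1 was lower in AMPKβ1-/- BMDMs by log2 fold changes of -0.32 with vehicle (adjusted p = 0.0315) and -0.37 with PF (adjusted p = 0.00854). On that scale its levels were 43.5, 33.6 and 35.7 CPM in WT and 27, 29.7 and 31.9 CPM in AMPKβ1-/- BMDMs with vehicle, again without overlap. Prkaa1 is the most AT-rich of the 10 genes, and the direction of its difference between genotypes rests on the normalization.

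The γ subunit genes differed less. Prkag1 (γ1; chromosome 15, 98812797 to 98831521, minus strand) was at 87.3, 77.1 and 71.5 CPM in WT and 62, 56.9 and 69 CPM in AMPKβ1-/- BMDMs with vehicle. With PF it was at 76.6, 65 and 65.7 CPM in WT and 58.5, 62.6 and 60.1 CPM in AMPKβ1-/- BMDMs. The AMPKβ1-/- libraries were the lower ones with either treatment. Prkag1 fell to 79.5% of WT with vehicle (log2 fold change -0.33, SE 0.099, adjusted p = 0.00994), a call lost without WT vehicle library 1 (adjusted p = 0.0563), without AMPKβ1-/- vehicle library 2 (adjusted p = 0.0626) and after removal of the trend (log2 fold change -0.061, adjusted p = 0.572).

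Prkag2 (γ2; chromosome 5, 24862744 to 25100642, minus strand) stayed between 22.9 and 29.8 CPM in all 12 libraries. Its log2 fold change in AMPKβ1-/- against WT BMDMs with vehicle was -0.011 (95% interval -0.225 to 0.202, adjusted p = 0.931). The γ1 share of γ subunit RNA per kilobase was 79.4% ± 2.2 (SD, n = 6) in AMPKβ1-/- and 82.9% ± 1.48 (SD, n = 6) in WT BMDMs, a difference of -3.58 points (two-sided exact permutation test within treatment, p = 0.015, or 0.05 without WT vehicle library 1), and AMPKβ1-/- vehicle library 3, at 83.1%, lay among the WT values. Prkag1 (52.8% GC) is richer in GC than Prkag2 (48.4%), and the share was not computed with the GC and length trend removed. On that scale the log2 fold changes of Prkag1 and Prkag2 in AMPKβ1-/- against WT BMDMs were -0.061 and -0.104 with vehicle. With PF they were 0.031 and 0.16.

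Of the LKB1 complex, the kinase gene Stk11 (chromosome 10, 80115803 to 80130682, plus strand) was at 210, 196 and 219 CPM in WT BMDMs with vehicle and 190, 158 and 153 CPM in AMPKβ1-/- BMDMs with vehicle. It was lower in each of the latter and fell to 80.1% of WT (log2 fold change -0.32, SE 0.089, adjusted p = 0.00625). Removing the trend gave 0.13 (adjusted p = 0.129). Strada (chromosome 11, 106163330 to 106202168, minus strand) was at 45.1, 37.4 and 43.5 CPM in WT and 37.1, 34.4 and 33.1 CPM in AMPKβ1-/- BMDMs with vehicle. It fell to 83.1% of WT (log2 fold change -0.27, SE 0.11, adjusted p = 0.0394), or by -0.26 once the trend was removed (adjusted p = 0.0483), but this call is a narrow one, since it was lost without WT vehicle library 1 (adjusted p = 0.137) or 3 (0.0977), AMPKβ1-/- vehicle library 2 (0.104) or 3 (0.119), WT PF library 2 (0.0509) or AMPKβ1-/- PF library 3 (0.0507). With PF in AMPKβ1-/- BMDMs Stk11 was at 149, 163 and 165 CPM and Strada at 31.9, 35.5 and 32.2 CPM. Both thus lay close to their AMPKβ1-/- vehicle levels.

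Cab39 (chromosome 1, 85793441 to 85851576, plus strand), which encodes the scaffold MO25α that holds LKB1 and STRADα together, was at 38.6, 60.9 and 52.2 CPM in WT BMDMs with vehicle and 93.2, 114 and 121 CPM in AMPKβ1-/- BMDMs with vehicle. With PF it was at 60, 77.8 and 96 CPM in WT and 134, 112 and 131 CPM in AMPKβ1-/- BMDMs. The AMPKβ1-/- libraries were above the WT libraries with either treatment. Cab39 rose 2.16-fold in AMPKβ1-/- against WT BMDMs with vehicle (log2 fold change 1.11, SE 0.18, adjusted p = 0.000258) and 1.61-fold with PF (0.69, SE 0.17, adjusted p = 0.00617).

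The rise of Cab39 was smaller with the GC and length trend removed, by 0.43 with vehicle (adjusted p = 0.000494) and 0.25 with PF (adjusted p = 0.0145) on the log2 scale. On that scale its levels were 61.7, 74.7 and 70.2 CPM in WT and 89.9, 91.7 and 97.8 CPM in AMPKβ1-/- BMDMs with vehicle. The libraries of the genotypes did not overlap there either, and Cab39 was the only one of the 9 tested genes called higher in AMPKβ1-/- BMDMs under both normalizations and both treatments.

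Camkk2 (chromosome 5, 122731170 to 122779409, minus strand), the calcium-dependent upstream kinase, was at 184, 179 and 231 CPM in WT and 214, 178 and 192 CPM in AMPKβ1-/- BMDMs with vehicle. With PF it was at 166, 167 and 159 CPM in WT and 174, 183 and 178 CPM in AMPKβ1-/- BMDMs. The vehicle groups overlapped, with a log2 fold change of -0.024 (95% interval -0.226 to 0.178, adjusted p = 0.84). After removal of the trend it was called higher in AMPKβ1-/- BMDMs, by 0.31 with vehicle (adjusted p = 0.00302) and 0.28 with PF (adjusted p = 0.00545).

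**Figure D2:**
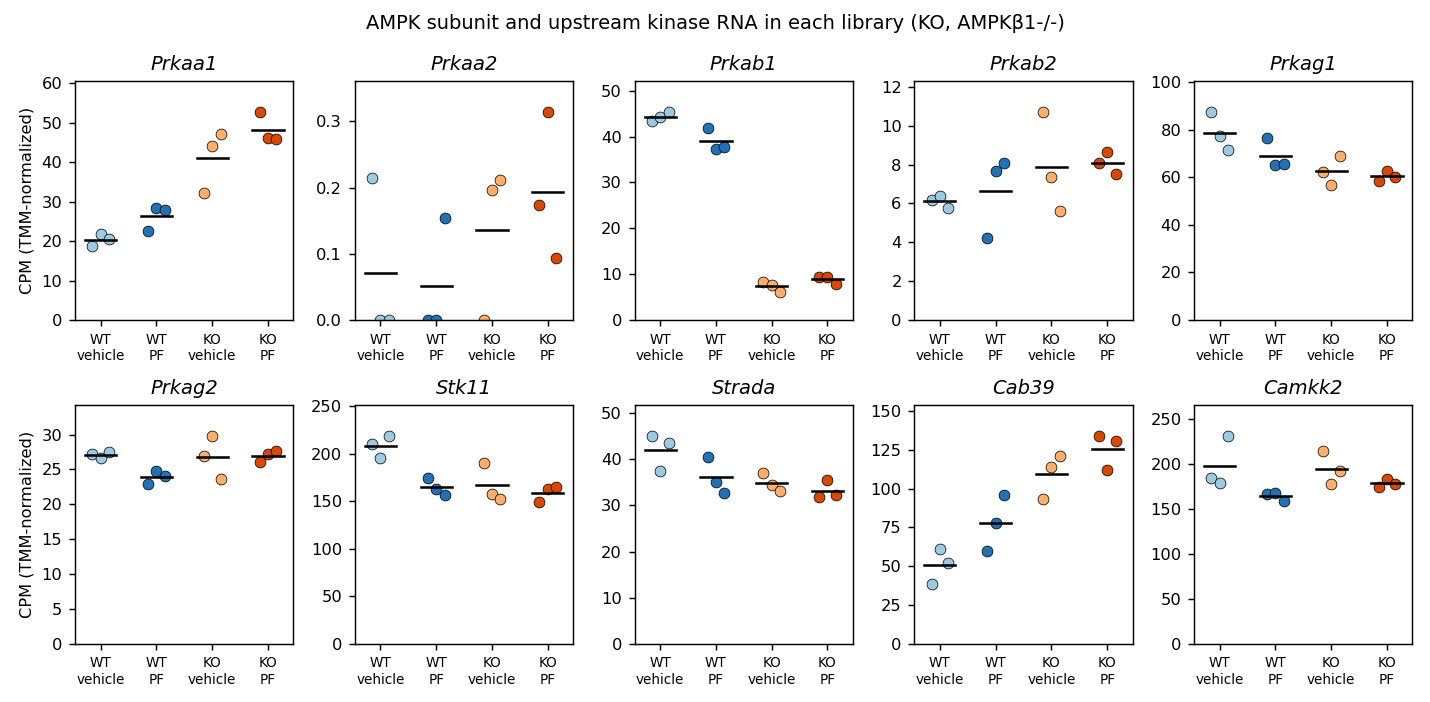
Level of the 10 genes in each of the 12 libraries, in TMM-normalized CPM on a linear axis from 0, with 1 point per library and a bar at the group mean of 3 libraries (KO, AMPKβ1-/-). Prkab1 drops from 37.3 to 45.3 CPM in WT to 6.05 to 9.42 CPM in AMPKβ1-/- BMDMs, and Prkaa1 and Cab39 are higher in the AMPKβ1-/- libraries on this scale.

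Counting over the 9 tested genes, 6 were called in AMPKβ1-/- against WT BMDMs with vehicle, 2 of them higher (Prkaa1 and Cab39) and 4 lower (Prkab1, Prkag1, Stk11 and Strada). Across all tested genes 59.7% were called in this comparison, 29.7% higher and 30% lower, so a count of 6 is near the background. With scaling by library size alone, 3 of the 9 were called, Prkaa1 and Cab39 higher and Prkab1 lower, and the share of all genes called at that scaling is not given here. The libraries of the genotypes did not overlap for 6 of the 9, against 62.9% of all tested genes. Past the log2 fold change of 0.8 that the study used as its threshold were 3 of the 9 (Prkaa1, Prkab1 and Cab39), against 17.8% of all tested genes. The median log2 fold change of the 9 genes was -0.024, and that of all tested genes -0.026.

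With PF in both genotypes, 3 of the 9 were called, Prkaa1 and Cab39 higher and Prkab1 lower, against 47.1% of all tested genes, 24.1% higher and 22.9% lower. Stk11 (log2 fold change -0.054, adjusted p = 0.639), Strada (-0.12, adjusted p = 0.362), Prkag1 (-0.20, adjusted p = 0.119) and Prkag2 (0.18, adjusted p = 0.161) were not called. The vehicle and PF comparisons use different libraries for the means but share one fit and its estimate of the spread. With the trend removed, 5 were called with vehicle (Cab39 and Camkk2 higher; Prkaa1, Prkab1 and Strada lower; background 34.4%) and 5 with PF (Cab39, Camkk2 and Stk11 higher; Prkaa1 and Prkab1 lower; background 38.9%).

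PF against vehicle in WT BMDMs asks whether the RNA of AMPK's subunits and upstream kinases differed after 6 h with the activator. The RNA counts hold no measure of AMPK activity. Of the 9 tested genes, 2 were called, a count near the background of 15.9% of all tested genes. Stk11 was called lower, as were 8.95% of all tested genes, and Cab39 higher, as were 6.99%. The median log2 fold change was -0.18 over the 9 genes and 0.0048 over all tested genes. None of the 9 passed the log2 fold change of 0.8, as did 1.52% of all tested genes, and none was called with the trend removed (background 7.27%).

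Stk11 fell from 210, 196 and 219 CPM with vehicle to 175, 163 and 157 CPM with PF, or to 79% of vehicle (log2 fold change -0.34, SE 0.089, adjusted p = 0.0223), and no PF library reached a vehicle library. Cab39, whose WT values are given above, rose 1.54-fold (log2 fold change 0.62, SE 0.18, adjusted p = 0.036), and its lowest PF library lay just under its highest vehicle library. Both calls are fragile. Both ended when either the first or the last WT vehicle library was left out, or the second or last WT PF library, with adjusted p values of 0.0632 to 0.105 for Stk11 and 0.0878 to 0.167 for Cab39, and with the trend removed the estimates were -0.10 (adjusted p = 0.38) and 0.27 (adjusted p = 0.0537). Calls over all genes fell in the same refits, from 1725 to 539, 699, 453 and 346 in that order.

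Among the others, Prkaa1 had a log2 fold change of 0.36 with PF in WT BMDMs (adjusted p = 0.0838), turning to -0.063 with the trend removed, and was called without WT PF library 1 (adjusted p = 0.0276) or AMPKβ1-/- vehicle library 1 (adjusted p = 0.0384). Camkk2 had -0.27 (adjusted p = 0.063) and was called without WT vehicle library 2 (adjusted p = 0.0331) or AMPKβ1-/- vehicle library 1 (adjusted p = 0.0477). Strada had -0.22 (adjusted p = 0.156) and was called without WT PF library 1 (adjusted p = 0.0425). Whether these 3 are called thus depends on single libraries. Without WT PF library 1, 3243 of all genes were called against 1725 with it. Prkab1 had -0.18 (95% interval -0.412 to 0.0437, adjusted p = 0.227), Prkag1 -0.19 (adjusted p = 0.189), Prkag2 -0.18 (adjusted p = 0.208) and Prkab2 0.12 (95% interval -0.402 to 0.648, adjusted p = 0.734). The libraries with PF and vehicle did not overlap for 5 of the 9 genes, against 32.2% of all tested genes.

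In AMPKβ1-/- BMDMs, which lack β1 by genotype, none of the 9 genes was called by edgeR with PF against vehicle, and 0 had an unadjusted p below 0.05. Across all tested genes 0.0554% were called. The log2 fold changes ran from -0.13 (Camkk2, 95% interval -0.328 to 0.0762) to 0.27 (Prkab1, 95% interval -0.0213 to 0.553). The difference between the responses of the genotypes, WT minus AMPKβ1-/-, was called for 0 of the 9 (background 0.416%) and had an unadjusted p below 0.05 for 1, Prkab1 (-0.45, SE 0.17, adjusted p = 0.26). For Stk11 this difference was -0.27 (95% interval -0.534 to 0.00224, adjusted p = 0.353) and for Cab39 0.42 (95% interval -0.115 to 0.961, adjusted p = 0.463), so the responses of these genes in WT BMDMs were not shown to differ from those in AMPKβ1-/- BMDMs.

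**Figure D3:**
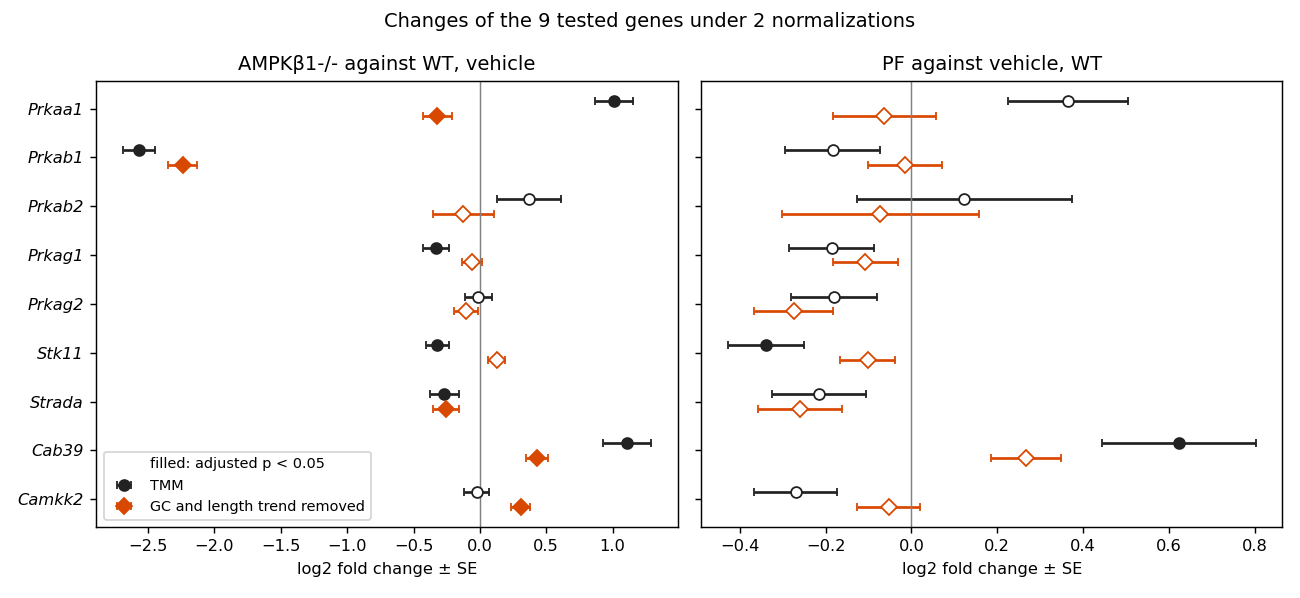
Log2 fold changes with their standard errors (bars) for the 9 tested genes in AMPKβ1-/- against WT BMDMs with vehicle (left) and PF against vehicle in WT BMDMs (right), with TMM normalization (circles) and after the GC and length trend was removed (diamonds); filled symbols have an adjusted p below 0.05. Prkab1 and Cab39 keep their direction and call on the left under both, Prkaa1 changes sign from 1.01 to -0.32, and on the right no diamond is filled.

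Across all tested genes, Spearman's rho between the log2 fold change and GC content was -0.76 in AMPKβ1-/- against WT BMDMs with vehicle, -0.55 with PF, -0.71 for PF against vehicle in WT and -0.45 for PF against vehicle in AMPKβ1-/- BMDMs. These correlations are across genes, which are not independent replicates, and the comparisons share libraries. Once the trend was removed they were between -0.044 and 0.026. The plot of change against GC content places the 9 tested genes against this trend. Prkaa1 and Cab39 sit at its AT-rich, rising end and Stk11 at its GC-rich end, while Prkab1 lies far under the genes of its GC content.

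**Figure D4:**
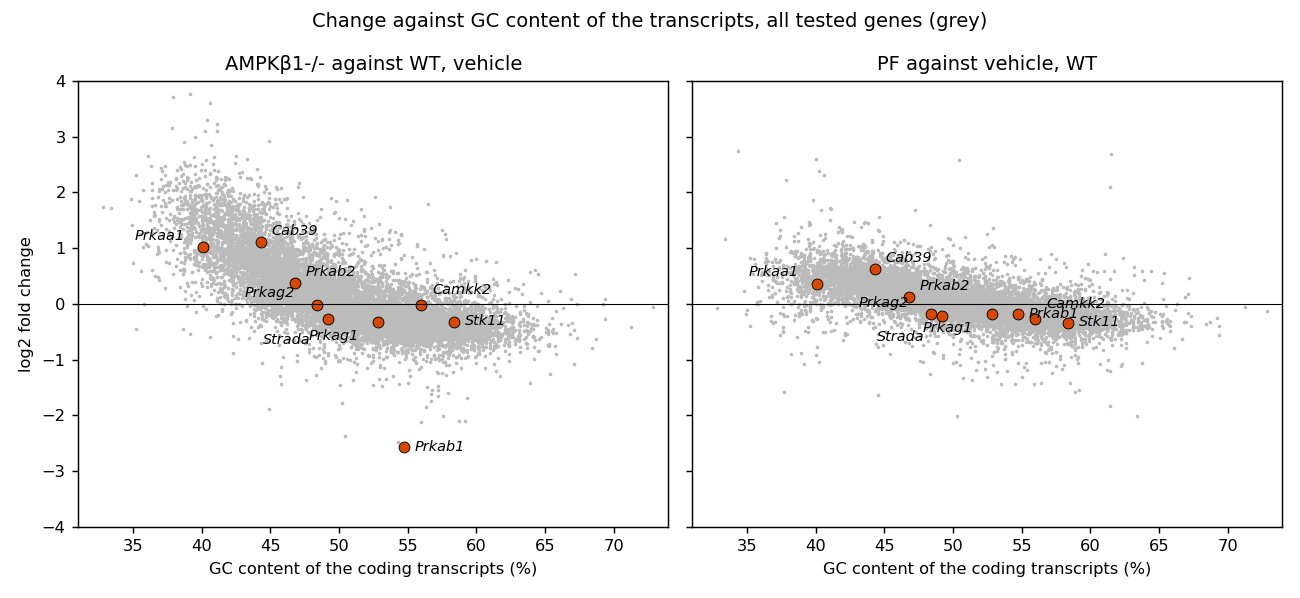
Log2 fold change against the GC content of the coding transcripts (percent) for 10784 tested genes with an annotated sequence (grey) and the 9 tested AMPK genes (orange), for AMPKβ1-/- against WT with vehicle (left) and PF against vehicle in WT (right). Genes of low GC content have the higher fold changes in both panels, and Prkab1 at -2.57 is far from that trend on the left, where 5 genes past the axis limit of 4 are not drawn.

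Levels can be compared between genes only per length, here as CPM per kilobase of the mean coding transcript. In WT BMDMs with vehicle Stk11 was the most abundant, at 118 ± 6.66 (SD, n = 3), followed by Camkk2 at 68.3 ± 9.83, Prkag1 at 47.6 ± 4.88 and Prkab1 at 21.5 ± 0.458. Strada at 18 ± 1.75 and Cab39 at 16.4 ± 3.64 overlapped each other, and Prkag2 at 9.71 ± 0.143, Prkaa1 at 4.39 ± 0.343, Prkab2 at 1.22 ± 0.0614 and Prkaa2 at 0.00894 ± 0.0155 came last. Upstream kinase RNA thus stood above that of the catalytic subunit on this scale, which does not correct for GC content. Stk11 (58.4% GC) and Camkk2 (56%) are richer in GC than Prkaa1 (40.1%), and the GC slopes of the WT vehicle libraries were 0.37 to 0.74. In AMPKβ1-/- BMDMs with PF, where those slopes were negative, Stk11 was at 90.2, Camkk2 at 61.5 and Prkaa1 at 10.4 CPM per kilobase. All other neighbours in the WT vehicle order were separated by more than the spread of their libraries.

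In AMPKβ1-/- BMDMs with vehicle the top of the order was the same, with Stk11 at 94.9 ± 11.6 and Camkk2 at 67.2 ± 6.4 CPM per kilobase (SD, n = 3). Cab39, at 35.4 ± 4.68, lay beside Prkag1 at 37.9 ± 3.7, with overlapping libraries. Prkaa1 at 8.87 ± 1.69 overlapped Prkag2 at 9.59 ± 1.1, and Prkab1 at 3.58 ± 0.585 came between these and Prkab2 at 1.58 ± 0.512.

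The genes also moved together in pairs across the libraries. Over the 12 libraries the log2 CPM of Prkaa1 and Cab39 had a Pearson r of 0.95 and those of Stk11 and Strada 0.89, while Strada and Cab39 had -0.93 and Prkaa1 and Prkab1 -0.91. These values describe libraries that share genotype, treatment and the GC trend, and carry no p. The tested genes with a pattern most like that of Prkaa1 were Trnt1 (r = 0.994), Stap1 (0.992) and Csgalnact2 (0.991), with GC contents of 41.6%, 40.7% and 39.7% that are close to the 40.1% of Prkaa1. For Stk11 they were Kdm4b (0.989), Mast3 (0.981) and Arhgap45 (0.98), at 58.7%, 60.9% and 58.5% GC. For Prkab1 they were Gpr162 (0.99), Pdxk (0.987) and Pianp (0.984).

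The promoters of Prkaa1, Cab39 and Stk11 are shown because, with TMM normalization and vehicle, the first pair was called higher and the last lower in AMPKβ1-/- BMDMs, although with the trend removed the sign turned for Prkaa1 (-0.32, adjusted p = 0.0315) and for Stk11 (0.13, adjusted p = 0.129). They are the 250 bases before the annotated start (RefSeq, GRCm38.p6, plus strand for each), at chr15:5143611-5143860 for Prkaa1, chr1:85793191-85793440 for Cab39 and chr10:80115545-80115794 for Stk11, and capitals mark GC boxes (GGGCGG on either strand, read as CCGCCC on the other).
Prkaa1: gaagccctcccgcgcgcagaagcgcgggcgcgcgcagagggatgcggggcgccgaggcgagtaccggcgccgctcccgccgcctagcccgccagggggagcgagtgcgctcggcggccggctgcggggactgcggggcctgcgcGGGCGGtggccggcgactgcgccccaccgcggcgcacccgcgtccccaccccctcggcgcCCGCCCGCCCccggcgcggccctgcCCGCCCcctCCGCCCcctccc
Cab39: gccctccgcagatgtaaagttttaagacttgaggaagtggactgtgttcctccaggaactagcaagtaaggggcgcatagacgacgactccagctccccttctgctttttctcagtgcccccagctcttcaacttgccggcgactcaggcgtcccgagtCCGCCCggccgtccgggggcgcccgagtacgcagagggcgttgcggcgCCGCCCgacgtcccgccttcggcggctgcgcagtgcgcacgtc
Stk11: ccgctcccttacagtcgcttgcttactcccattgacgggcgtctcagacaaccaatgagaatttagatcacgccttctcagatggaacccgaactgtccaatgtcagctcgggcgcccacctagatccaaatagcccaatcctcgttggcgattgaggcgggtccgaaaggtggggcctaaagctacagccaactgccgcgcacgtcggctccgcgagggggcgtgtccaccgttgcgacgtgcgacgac
The Prkaa1 promoter is 85.2% GC, above 99.9% of the 32851 promoters of the same length, although its transcripts are the most AT-rich of the 10 genes. It holds 5 GC boxes, that of Cab39 (64.8% GC) holds 2 and that of Stk11 (59.6% GC) holds 0, where 32.7% of all promoters have at least 1. The Stk11 promoter has 3 CCAAT boxes (CCAAT or ATTGG, found in 33.8% of promoters), and those of Prkaa1 and Cab39 have 0. None of the 10 genes had an E-box (CACGTG, 6.02% of promoters) in this window of its first promoter entry, the only one searched. Prkag2 has 3 such entries. A match of letters is a description and says nothing of binding.

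The genes around Prkab1 were examined because an engineered allele is commonly inherited together with the chromosome on either side. Of 44 tested genes within 2 Mb of it, 24 were called in AMPKβ1-/- against WT BMDMs with vehicle, against 59.7% of all tested genes, and 22 of these were lower and 2 (Dynll1 and Gatc) higher, against 30% and 29.7%. Their median log2 fold change was -0.25, and that of all tested genes -0.026. The nearest tested gene, Cit, 4.6 kb away, had a log2 fold change of 0.055 (adjusted p = 0.863). With PF 17 were called, all lower, against 47.1% of all tested genes called and 22.9% called lower.

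Among the neighbours with the smallest p were Acads, a mitochondrial acyl-CoA dehydrogenase (log2 fold change -0.76, SE 0.099, adjusted p = 5.08e-05), Pebp1, an inhibitor of RAF signalling (-0.60, adjusted p = 0.000164), Cox6a1, a subunit of cytochrome c oxidase (-0.55, adjusted p = 0.000178), Rplp0, a ribosomal stalk protein (-0.58, adjusted p = 0.000234), and Mvk, mevalonate kinase (-0.79, adjusted p = 0.000245). The other called genes were lower (Usp30, Kctd10, Ube3b, Trpv4, Gltp, 1500011B03Rik, Oasl2, 2210016L21Rik, Unc119b, Mlec, Rnf10, Pxn, Gcn1, Rab35, Suds3, Wsb2 and Fbxo21) or higher (Dynll1, 0.42, and Gatc, 0.30). None of the 24 passed a log2 fold change of 0.8 either way. The transcripts of the 44 genes ran from 49.4% GC (Oasl2 and Gatc) to 62.2% (Fam222a). With the GC and length trend removed 14 were called, 6 higher and 8 lower (background 34.4%). The excess of lower calls with TMM, 22 against 2 higher, was thus mostly gone on that scale. Acads (-0.31), Mvk (-0.32) and Rplp0 (-0.28) were among the 8 called lower.

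**Figure D5:**
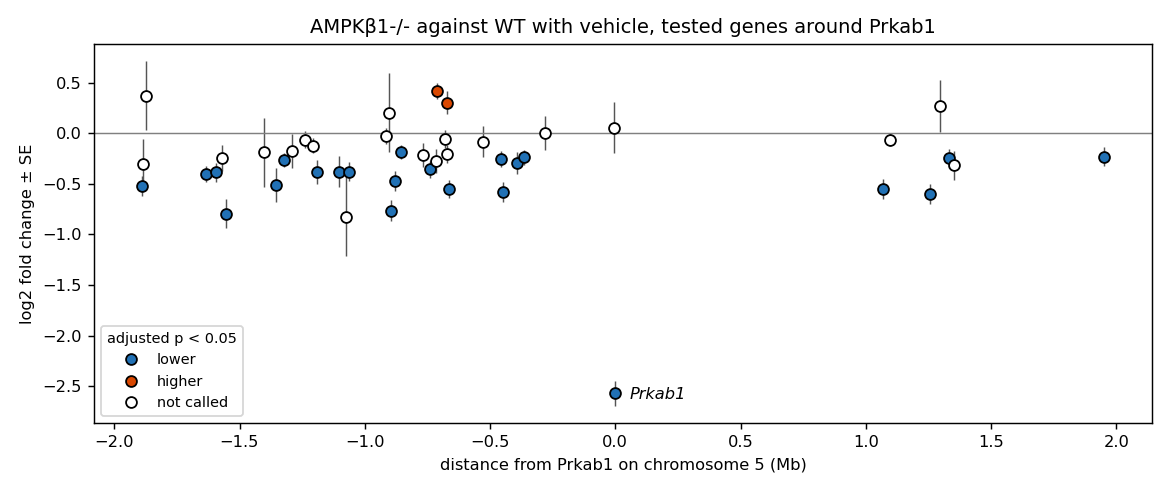
Log2 fold change with its standard error in AMPKβ1-/- against WT BMDMs with vehicle for Prkab1 and the 44 tested genes within 2 Mb, by distance from Prkab1 in megabases; filled points have an adjusted p below 0.05. Prkab1 at -2.57 stands alone, and 22 neighbours are called lower by at most 0.79.

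Regulators of AMPK other than the 10 genes were given by a list of 21, of which 19 were tested. This list and those of kinases and substrates below were written with earlier results of these data known. With PF in WT BMDMs 6 were called, 4 higher and 2 lower (median log2 fold change 0.0013, and 0.0048 over all tested genes; background 15.9%). Fnip2, a folliculin partner in nutrient signalling at the lysosome, rose from 285, 340 and 395 CPM to 438, 521 and 591 CPM (log2 fold change 0.60, SE 0.12, adjusted p = 0.00708), without overlap, and its rise was 0.66 with the trend removed (adjusted p = 0.000167). Higher as well were Map3k7, the kinase TAK1 (0.60, adjusted p = 0.0222), and the phosphatase genes Ppp2ca (0.32, adjusted p = 0.0205) and Ppm1a (0.25, adjusted p = 0.0473). Sesn2, a stress-induced leucine sensor (-0.48, adjusted p = 0.0235), and the phosphatase Ppm1f (-0.24, adjusted p = 0.0488) were lower. With the trend removed only Fnip2 of the 6 was called (background 7.27%). Leaving out 1 library left 2 called without WT vehicle library 1, 2 without WT vehicle library 3, 3 without WT PF library 2 and 1 without WT PF library 3, and Fnip2 alone was called in all 4 cases (adjusted p 0.0286, 0.00657, 0.0335 and 0.0306). Over all genes 539, 699, 453 and 346 were called in these refits, against 1725 with all libraries. None of the 19 was called by edgeR with PF in AMPKβ1-/- BMDMs, where 1 had an unadjusted p below 0.05, and the difference between the responses was called for 0 of the 19 (3 at an unadjusted p below 0.05), Fnip2 with 0.56 (adjusted p = 0.168) included.

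In AMPKβ1-/- against WT BMDMs with vehicle 11 of the 19 regulators were called, 5 higher and 6 lower (median log2 fold change 0.093; background 59.7%). Fnip1, the paralogue of Fnip2, showed the largest difference. It was at 5.56, 8.68 and 4.68 CPM in WT and 20.1, 33.8 and 35 CPM in AMPKβ1-/- BMDMs with vehicle, a 4.67-fold rise without overlap (log2 fold change 2.22, SE 0.26, adjusted p = 5.08e-05) that came to 0.69 with the trend removed (adjusted p = 0.0101). Map3k7 was higher by 1.08 (adjusted p = 9.59e-05) and by 0.22 with the trend removed (adjusted p = 0.0906). Ppm1f (-0.38, adjusted p = 0.00087), Flcn, which encodes folliculin (-0.35, adjusted p = 0.00105), Lamtor1, a lysosomal Ragulator subunit (-0.42, adjusted p = 0.00122), and the TAK1 partner Tab1 (-0.50, adjusted p = 0.0015) were lower, and of these Ppm1f alone was called with the trend removed (-0.34, adjusted p = 0.000632).

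LKB1 also activates a family of AMPK-related kinases, of which 9 of 12 listed were tested. With PF in WT BMDMs 3 were called, all lower (median log2 fold change -0.23; background 15.9%): Nuak1 (-0.71), Mark2 (-0.35, adjusted p = 0.0171) and Nuak2 (-0.39, adjusted p = 0.0221). Nuak1, a kinase linked to cell adhesion and stress, fell from 21.4, 20.3 and 20.1 CPM to 12.4, 12.6 and 12.7 CPM (SE 0.11, adjusted p = 0.00154). Its PF libraries lay well under the vehicle libraries, and the fall was called with the trend removed as well (-0.60, adjusted p = 0.000984), unlike those of Mark2 and Nuak2. Nuak1 alone of the 3 was called when either library 2 or library 3 of WT with PF, or library 3 of WT with vehicle, was left out, and Nuak2 was lost when library 1 of WT with vehicle was (adjusted p = 0.0767). In the same refits, in that order, 453, 346, 699 and 539 of all genes were called, against 1725 with all libraries. Nuak1 in AMPKβ1-/- BMDMs was at 29.7, 30.5 and 28.2 CPM with vehicle and at 27.7, 25.2 and 31.2 CPM with PF, and the difference of the responses, -0.64 (SE 0.15), was not called (adjusted p = 0.0702). There it was higher than in WT with vehicle by 0.52 (adjusted p = 0.000644), and by 0.47 with the trend removed (adjusted p = 0.000827).

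The other kinases of this family called in AMPKβ1-/- against WT BMDMs with vehicle were Mark3 (log2 fold change 0.40, adjusted p = 0.00129), Nuak2 (-0.33, adjusted p = 0.013), Mark4 (-0.35, adjusted p = 0.0142) and Mark2 (-0.25, adjusted p = 0.0197), which makes 5 of 9 with Nuak1 (median 0.022; background 59.7%). With the trend removed Mark3 was called in the same direction (0.38, adjusted p = 0.000953) and the estimate for Mark2 turned to 0.086 (adjusted p = 0.297).

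Of 25 listed substrates of AMPK 22 were tested, and 8 were called with PF in WT BMDMs, 3 higher and 5 lower (median log2 fold change -0.12; background 15.9%). The tumour suppressor gene Trp53 (log2 fold change -0.36, adjusted p = 0.0137), the transcriptional repressor Hdac5 (-0.36, adjusted p = 0.0167), the lipase gene Lipe (-0.41, adjusted p = 0.0173) and the autophagy gene Atg9a (-0.36, adjusted p = 0.0222) were lower, and Mff, a mitochondrial fission factor, was higher (0.45, adjusted p = 0.0226). The count fell to 1 when library 1 of WT with vehicle, or either library 2 or library 3 of WT with PF, was left out, each of these 5 calls being lost (adjusted p from 0.0506 for Hdac5 to 0.11 for Atg9a), and it was 3 when library 3 of WT with vehicle was left out and 2 with the 6 WT libraries fitted alone. Calls over all genes fell as well, from 1725 to 539, 453, 346, 699 and 419 in that order. With the GC and length trend removed 3 of the 22 were called (background 7.27%), among them Pfkfb3, an activator of glycolysis (0.445, adjusted p = 0.00436), and Trp53 (-0.22, adjusted p = 0.0366).

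In AMPKβ1-/- against WT BMDMs with vehicle 14 of the 22 substrate genes were called, 3 higher and 11 lower (median log2 fold change -0.19, and -0.026 over all tested genes; background 59.7%, 29.7% higher and 30% lower). Txnip, an inhibitor of glucose uptake, was lower (-0.51, SE 0.07, adjusted p = 7.16e-05), and so were the sterol regulator Srebf2 (-0.51, adjusted p = 0.000199), Lipe (-0.53, adjusted p = 0.00049), Hdac5 (-0.44, adjusted p = 0.000696) and the mTORC1 inhibitor Tsc2 (-0.49, adjusted p = 0.00127). Mff was higher (0.55, adjusted p = 0.00116). With the trend removed 10 of the 22 were called, 2 higher and 8 lower (background 34.4%), Txnip (-0.61), Srebf2 (-0.28), Lipe (-0.21), Hdac5 (-0.17) and Tsc2 (-0.43) among the latter.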

How the data were processed

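RNA of BMDMs was sequenced in 12 libraries, 3 in each of 4 groups of genotype and treatment. The authors ran Trim Galore on the paired reads and Salmon on the trimmed ones, and they deposited Salmon's estimated counts summed by gene as integers, with no normalization. The genome build, Salmon's version and its bias options are not given in the sources used here. Groups were read from the count columns, which are numbered 1 to 3 within a group. The labels do not tie these numbers to animals, and same-numbered libraries had correlations of -0.17 to 0.32 between their deviations from the group means, so no pairing was used.

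Counts were tested in R 4.3.3 with edgeR 4.0.16 (robust quasi-likelihood test, TMM, filterByExpr by group) in one fit of 4 group means to all 12 libraries, and p values were adjusted by Benjamini-Hochberg over the 10822 tested genes. A gene was called at an adjusted p below 0.05. Standard errors, computed from the F test, are approximate. CPM were scaled by TMM, with a prior count of 2 on the log2 scale. A library's floor of 3 counts was 0.196 to 0.321 CPM and covers counting error only. The code was tested on simulated data.

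Positions, transcript length and GC content (means over coding transcripts) came from GENCODE M21 on GRCm38, in which 12703 symbols were found directly and 192 as older names, and 65 were not found. The trend of a library's levels with GC content and length was modelled by natural splines (5 degrees of freedom each) and used as an offset. Shares were compared by exact permutation within treatment. Alternatives were DESeq2 1.42.0 or its size factors, library size alone, no filter, a minimum of 10 counts in every library, a replicate block, the libraries of a contrast alone and leaving out each library in turn.

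The named genes were the 10 members, up to 6 called genes of a list and contrast by smallest p, called genes within 2 Mb of Prkab1, and the 3 genes most like Prkab1, Prkaa1 and Stk11. The members and lists were chosen from general knowledge with earlier results of these data known. Protein sequences were not used here, and 1 gene that the rule names is not reported here.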

Additional observations from a re-analysis of the deposited data

How the results depend on the processing

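The fall of Prkab1 in AMPKβ1-/- BMDMs was called under every alternative, with log2 fold changes of -2.67 to -2.47 when 1 library was left out. Removing the GC and length trend gave 5 called AMPK genes for AMPKβ1-/- against WT with PF and 0 for PF against vehicle in WT, 1 and 5 regulators for PF in WT and for AMPKβ1-/- with vehicle, 1 and 3 LKB1-dependent kinases, 3 substrates for PF in WT, and 14 genes near Prkab1. With the trend removed, the shares of all tested genes called were 34.4% for AMPKβ1-/- against WT with vehicle, 38.9% with PF and 7.27% for PF in WT. Log2 fold changes that turned sign there were, for AMPKβ1-/- against WT with vehicle, Prkaa1 -0.32, Prkab2 -0.13, Stk11 0.13 and Camkk2 0.31, and with PF Prkaa1 -0.37, Prkab2 -0.079, Prkag1 0.031 and Stk11 0.20. For PF against vehicle they were Prkaa1 -0.063 and Prkab2 -0.072 in WT, Prkaa1 -0.11, Prkab2 -0.027 and Prkag2 -0.0094 in AMPKβ1-/- BMDMs, and Prkab2 -0.046 and Camkk2 0.03 for the difference of the responses. Camkk2, Stk11 (with PF) and Prkaa1 were called in the new direction.

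Library size alone shifted the median of all genes by 0.18 (vehicle) and 0.15 (PF) on the log2 scale for AMPKβ1-/- against WT and gave 3 and 5 called AMPK genes, 3 kinases and 12 genes near Prkab1, with Prkag2 at 0.20 and Camkk2 at 0.18 (vehicle) and Stk11 at 0.096 and Strada at 0.028 (PF). The share of all genes called at this scaling is not given here, so these counts are not set against a background. Prkag2 with vehicle had 0.0063 with DESeq2's size factors, 0.014 with at least 10 counts in every library, 0.0091 by DESeq2 and 0.0084 from the libraries of the contrast alone, which gave -0.00078 for PF in AMPKβ1-/- BMDMs. Camkk2 had 0.00062 with at least 10 counts. Strada lost its call with size factors, library size, 10 counts, DESeq2 and the contrast's libraries alone. A fold past 0.8 left 3 AMPK genes, 2 regulators, 0 kinases, 0 substrates and 0 genes near Prkab1 for AMPKβ1-/- against WT with vehicle, and 0 of each list for PF in WT. The contrast's libraries alone gave 0 AMPK genes, 1 regulator, 1 kinase and 2 substrates for PF in WT, where 419 of all genes were called against 1725.

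Leaving out 1 library gave 4 to 6 AMPK genes for AMPKβ1-/- against WT with vehicle, 3 to 3 with PF, and 0 to 4 for PF in WT. The last count was 0 without any one of WT vehicle libraries 1 and 3 and WT PF libraries 2 and 3. For AMPKβ1-/- with vehicle and PF in WT the ranges were 9 to 13 and 1 to 9 regulators, 2 to 6 and 1 to 4 kinases, and 11 to 14 and 1 to 11 substrates, and 17 to 26 genes near Prkab1. All genes called for PF in WT ran from 346 (without WT PF library 3) to 3243 (without WT PF library 1), and for AMPKβ1-/- with vehicle from 5284 to 6646. Signs that turned had ranges of -0.099 to 0.10 (Camkk2) and -0.098 to 0.067 (Prkag2) for AMPKβ1-/- with vehicle, -0.043 to 0.37 (Prkab2) for PF in WT, -0.14 to 0.30 (Prkab2), -0.12 to 0.025 (Prkag1), -0.072 to 0.094 (Prkag2) and -0.13 to 0.031 (Stk11) for PF in AMPKβ1-/- BMDMs, and -0.18 to 0.33 (Prkab2) for the difference of responses. The genotype difference of the β1 share was -23.3 to -21.6 points and that of the γ1 share -4.44 to -2.74 points. The γ1 test passed the threshold in each but the one without WT vehicle library 1 (-3.21). With the replicate block 6, 3 and 2 AMPK genes were called, the counts without it, and 24 genes near Prkab1. The cause of these dependences was not tested. The low counts of Prkab2, 49 to 117 per library, limit its precision.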
